A study of Triticum aestivum and Triticum urartu with 56 samples.

Results

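RNA-seq of spikelets from 4 ELE RNAi lines (RNAi1 to RNAi4) and 3 CK samples (CK1 to CK3) of common wheat was described by chromosome, subgenome and gene order, with the position of each gene read from its TraesCS identifier. The deposited tables list 107891 genes, of which 55551 had a mean of at least 0.5 FPKM (fragments per kilobase of gene, scaled to the mapped fragments of the library) over the 7 libraries and were analysed. Of these, 54986 lie on the 21 chromosomes and 565 have no assigned chromosome. The 2041 genes with a mean between 0.5 and 0.6 FPKM had a median of 49 reads summed over the 7 libraries, and the 2389 genes left out at 0.4 to 0.5 FPKM had 40 reads. A gene could pass the minimum through 1 group alone, and 3317 of the analysed genes had a mean under 0.5 FPKM in the RNAi lines and 2573 had one in CK. The 7 libraries are part of a series of 56 samples.

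The RNAi lines carry a construct against an enhancer-like element (ELE) that lies in a copy of the Gypsy retrotransposon family RLG_famc7.3, and their genotype is given as RLG_7.3_enh_RNAi. The CK samples have the genotype WT, and both groups were sampled as spikelets at booting, the stage at which the growing spike is still wrapped in the flag leaf sheath. The labels name the cultivar Fielder, whereas the study's methods name JW1 as the cultivar that was transformed with Agrobacterium. According to the methods, the RNAi libraries came from transgenic lines of the T0 generation grown in a greenhouse, 1 library a line. Each RNAi library is thus 1 regenerated line. The methods and the labels call CK wild type, while another passage of the study calls CK negative control transgenic lines, so whether CK plants had passed through tissue culture is not settled here. Whether the 3 CK libraries came from separate plants is not given in the labels, and the methods speak of 3 WT beside the 4 lines without saying more, so p-values measure only the spread between these samples.

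Common wheat is a hexaploid with the subgenomes A, B and D, and most genes have a homoeologue, a partner inherited from another ancestor, at a matching place of the other subgenomes. Because the partners can stand in for each other, wheat plants survive the loss or gain of chromosomes and chromosome arms, and such stocks have long been used in wheat genetics. In the study, an ELE is a site away from genes that carries histone marks of active enhancers and gives rise to nascent non-coding transcripts. RNAi makes small RNAs that direct silencing of matching sequence. Set out by chromosome and gene order, expression shows whether a difference between lines falls on scattered genes, on neighbouring genes or on a chromosome as a unit.

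The construct was made from 2 pieces of 200 bases from chromosome 5A, which the supplementary table of the study places at chr5A:119548414-119548613 (region 1) and chr5A:119548604-119548803 (region 2) on the wheat reference sequence. They are shown because they are what the RNAi was directed at, and capitals mark the 10 bases that both pieces share.
region 1: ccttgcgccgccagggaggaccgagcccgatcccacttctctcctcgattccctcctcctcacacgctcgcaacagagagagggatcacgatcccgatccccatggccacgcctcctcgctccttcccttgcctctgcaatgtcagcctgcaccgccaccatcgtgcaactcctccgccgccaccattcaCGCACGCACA
region 2: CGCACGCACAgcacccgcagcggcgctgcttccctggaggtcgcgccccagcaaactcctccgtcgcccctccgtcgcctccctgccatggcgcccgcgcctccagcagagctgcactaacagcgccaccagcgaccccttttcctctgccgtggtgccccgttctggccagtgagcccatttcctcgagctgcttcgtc
Region 1 has 64.5% G and C and region 2 has 69.5%, and the end of region 1 is the start of region 2, so that the pieces form 1 continuous stretch of the element. Both come from 5A, which had a lowered level of most of its genes in RNAi4 but not in RNAi1 to RNAi3. Chromosome 6A and parts of other chromosomes were lowered in some lines too, and a link to the construct was not tested.

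The libraries were of uneven depth. Whole reads recovered from FPKM came to 7215239, 8521268, 9849534 and 9677770 on genes in RNAi1 to RNAi4, against 2492071, 4176655 and 8393204 in CK1 to CK3. CK2 stood apart from all others, with correlations of log2(FPKM + 1) between 0.588 and 0.747 to the other libraries, compared with 0.720 to 0.931 among the remaining pairs, and with a summed FPKM of 293545 against 534290 to 589114 elsewhere. The total to which its FPKM was scaled, recovered from the values, was 8059276, against 3176975 in CK1 and 9737702 in CK3. A smaller part of that total lay on genes in CK2 than in any other library, which scales its FPKM values down. The median log2 fold change over all analysed genes was 0.17, and 0.03 without CK2, so levels are read below against the median of the same fit.

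By chromosome, 6A had the largest share of lower genes and the smallest share of higher genes. On 6A, 171 of 2109 genes were lower and 12 higher in the RNAi lines (8.11% and 0.569%), with a median log2 fold change of -0.12. Over all genes, 2393 were lower (4.31%) and 2904 higher (5.23%) at a log2 fold change beyond 1 and an unadjusted p under 0.05 in limma. Chromosome 5A came next, with 149 genes lower and 77 higher of 2924 (5.10% and 2.63%). On the other 19 chromosomes the share of lower genes ran from 3.24% on 5B to 4.88% on 7A, and 7B was the only further chromosome with more lower genes (99) than higher genes (96). Chromosome 1A had the largest share of higher genes, 166 of 2396 (6.93%). After Benjamini-Hochberg adjustment over all genes, limma called 332 genes lower (0.598%) and 17 higher (0.0306%). Of the lower ones, 6A held 11 of its 2109 genes, a smaller share than over all genes, and 5A held 23 of 2924. Chromosomes 3D, with 23 of 2876, and 3A, with 22 of 2821, were level with 5A. Neither 6A nor 5A thus stood apart at this threshold. Every RNAi library lay below every CK library for 2620 genes (4.72%) and above every CK library for 6019 genes (10.8%). The excess of higher over lower genes depended on scaling and on CK2: without CK2, 3260 genes were lower and 810 higher, with quantile normalization 2819 and 2198, with edgeR on recovered reads 5518 and 2000, and with DESeq2 6767 and 2705. In each of these fits 6A kept the largest share of lower genes of the 21 chromosomes, between 9.67% and 20.9%. These are bulk tissue samples, in which fewer cells of a type and less RNA per cell cannot be told apart.

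**Figure D1:**
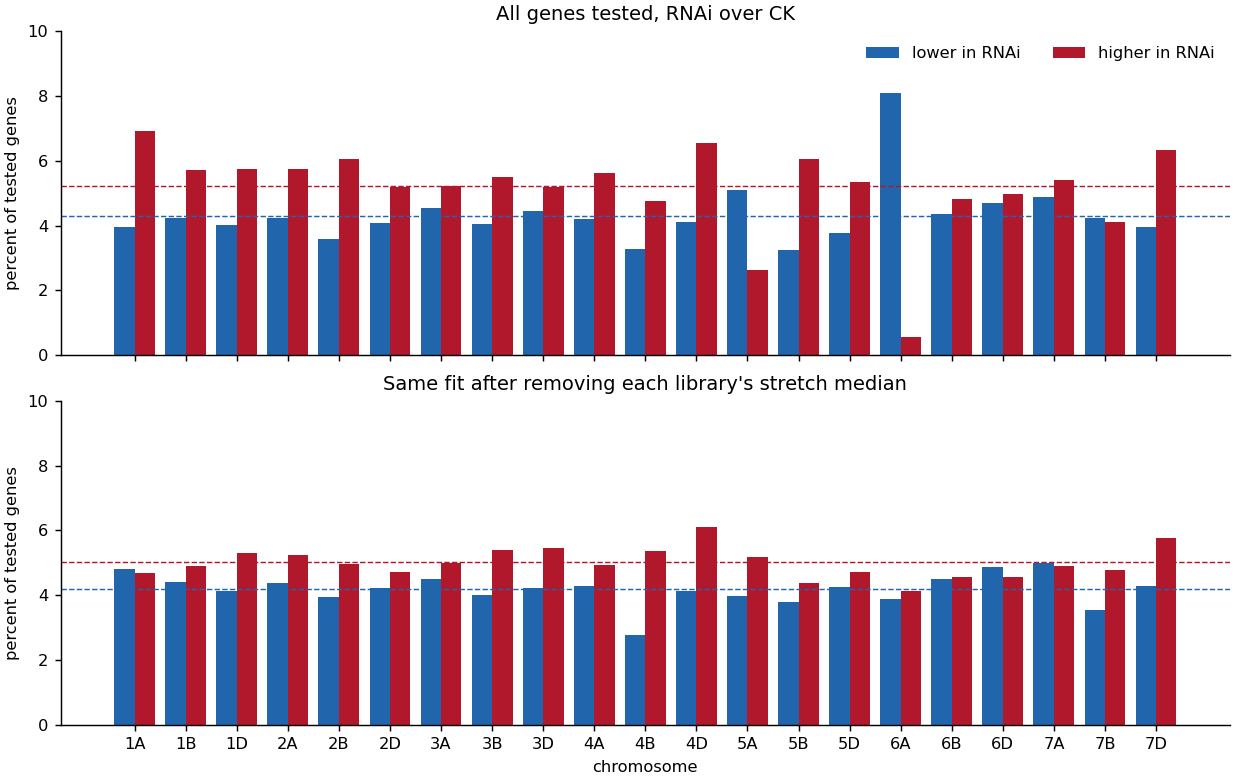
Percent of analysed genes on each chromosome called lower (blue) and higher (red) in RNAi over CK in limma, with the percent over all genes as dashed lines, as measured (top) and after the median deviation of each library's chromosome or stretch was subtracted (bottom), which by construction evens out the chromosomes. As measured, 6A had 8.11% lower and 0.569% higher genes, and after subtraction 3.89% and 4.13%.

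The 6A genes were low in 2 of the 4 RNAi lines, and the 5A genes in 1. Chromosome 6A took 1.97%, 3.83%, 3.69% and 2.01% of the reads on genes in RNAi1 to RNAi4, against 3.66%, 3.80% and 3.76% in CK1 to CK3. RNAi1 and RNAi4 lay far below the CK range, whereas RNAi3 lay inside it and RNAi2 just above it. Chromosome 5A took 6.06%, 5.91%, 6.07% and 3.27% in RNAi1 to RNAi4, against 5.81%, 5.45% and 6.10% in CK1 to CK3, so only RNAi4 stood outside the CK range. The 95% Wilson intervals of these shares were at most 0.0595 percentage points wide over all chromosomes and libraries and cover counting error only. As means, 6A held 2.88% ± 1.02 of reads in the RNAi lines (SD, n = 4) and 3.74% ± 0.0746 in CK (SD, n = 3), a difference of -0.864 percentage points with a two-sided exact permutation p of 0.343 over the 35 splits of 7 libraries. The difference of the means thus did not exceed the spread between the RNAi lines, and that spread was itself far wider than in CK. The homoeologous chromosomes did not share the pattern, as 6B took 3.79% to 4.04% in the RNAi lines and 3.82% to 3.99% in CK, and 6D 3.83% to 4.02% and 3.80% to 3.88%.

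**Figure D2:**
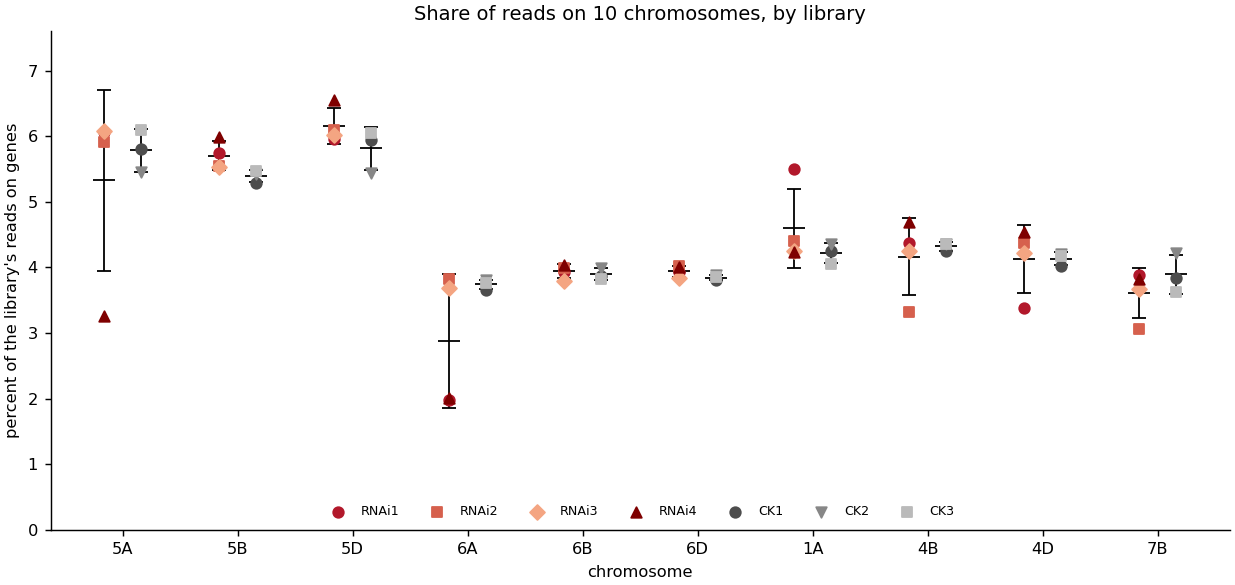
Percent of each library's reads on genes that fall on 10 chromosomes, RNAi lines on the left and CK on the right of each chromosome, with the mean and SD of each group as bars. On 6A, RNAi1 and RNAi4 sit at 1.97% and 2.01% and all other libraries between 3.66% and 3.83%, and on 5A only RNAi4 is low, at 3.27%.

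To see whether a few highly expressed genes set these shares, the FPKM of each gene with a mean of at least 5 FPKM was divided by the CK mean (for a CK library, by the mean of the other CK libraries), and the median was taken over the genes of a chromosome after each library was set to a median of 1. On 5A, with 1068 genes, this ratio was 1.06, 1.03, 1.02 and 0.551 in RNAi1 to RNAi4, against 1.01, 0.979 and 1.02 in CK1 to CK3. On 6A, with 741 genes, it was 0.560, 1.04, 1.03 and 0.533 in RNAi1 to RNAi4, against 0.986, 0.971 and 1.05 in CK1 to CK3. The reduction was spread over most genes of the chromosome. It was weaker at the end of 6A in RNAi4, where the last 55 genes had a ratio of 0.742, against 0.527 before them. In RNAi4, 69.6% of 5A genes and 67.9% of 6A genes lay more than 0.5 below 0 on the log2 scale of the ratio, and in RNAi1 66.5% of 6A genes did, compared with a median of 27.6% over the 140 pairs of library and chromosome without such a stretch. The lower and upper quartiles of 5A genes in RNAi4 were 0.353 and 0.762. In the same libraries the partners were near 1, at 1.03 for 6B and 1.03 for 6D in RNAi1, 1.04 for 6B and 1.07 for 6D in RNAi4, and 1.08 for 5B and 1.07 for 5D in RNAi4.

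**Figure D3:**
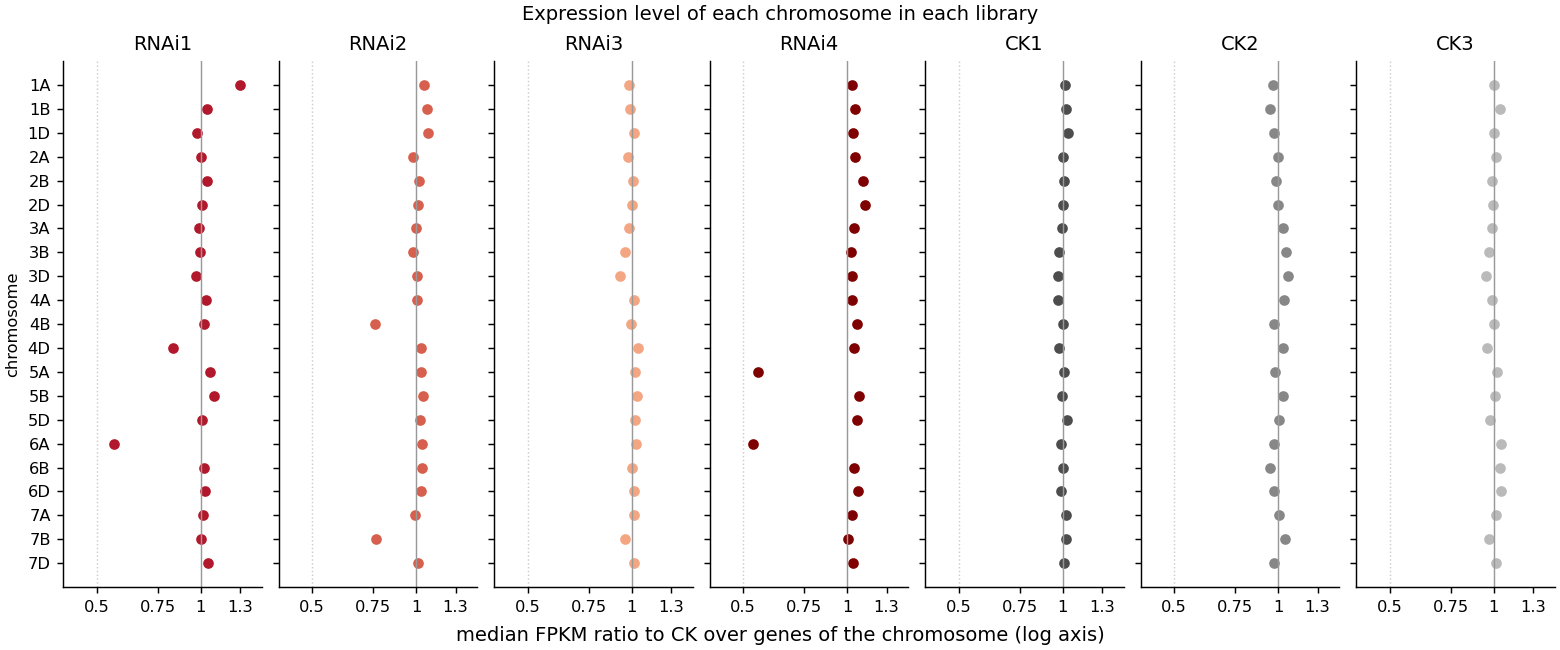
Median FPKM ratio to CK over the genes of each chromosome with a mean of at least 5 FPKM, 1 panel a library with the RNAi lines first, on a log axis with 1 as a solid and 0.5 as a dotted line. The lowest points are 6A in RNAi1 (0.560) and RNAi4 (0.533) and 5A in RNAi4 (0.551), and RNAi3 and the CK libraries stay between 0.922 and 1.07.

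Across the 147 pairs of library and chromosome, 7 stood apart and all 7 belonged to RNAi1, RNAi2 or RNAi4. The other 140 had ratios from 0.922 (3D in RNAi3) to 1.12 (2D in RNAi4). These 7 were picked from the values themselves, so they are given as a description with no test. They comprised chromosomes that were low throughout, chromosomes that were low up to a point in the gene order, and 1 chromosome that was low up to a point and high after it. The planned measure, which looked for bins of 25 genes at least 1 away on a log2 scale from the median of the other libraries, found no run of such bins in any library. It used means of log2(FPKM + 1), on which 6A as a whole shifted by only -0.56 in RNAi1 and -0.52 in RNAi4. The measure could thus hardly find such stretches, and nothing is read from its result.

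Chromosome 1A in RNAi1 was the chromosome that went both ways. Its first 243 genes, up to 30.8% of the gene order, had a ratio of 0.475 in RNAi1, against 0.958 to 1.14 in CK and 0.906 to 1.01 in the other RNAi lines. Its remaining 745 genes had a ratio of 1.64 in RNAi1, against 0.919 to 1.03 in CK and 1.02 to 1.07 in the other RNAi lines. Of the first stretch 73.3% of genes were low, and of the second stretch 58.5% were more than 0.5 above 0 on the log2 scale. The step between them was 1.78 on the log2 scale, the largest of all 147 pairs. When the gene order was cut into 10 equal parts, the ratio in RNAi1 was 0.599, 0.470 and 0.442 in the first 3 parts and above 1 in each later part, up to 1.92 in part 9. As a whole, 1A took 5.49% of the reads in RNAi1, against 4.05% to 4.35% in CK and 4.24% to 4.40% in the other RNAi lines.

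In RNAi2, the early parts of 4B and 7B were low and the rest was not. The first 372 genes of 4B, up to 40.5% of the order, had a ratio of 0.509 in RNAi2, against 0.926 to 1.02 in CK, and the remaining 533 genes had 0.992, against 0.942 to 1.02 in CK. The first 292 genes of 7B, up to 35.1% of the order, had a ratio of 0.497 in RNAi2, against 0.967 to 1.03 in CK, and the remaining 567 genes had 0.957, against 0.948 to 1.06 in CK. In the first stretches 72.3% of genes were low on each of the 2 chromosomes, and in the second stretches 30.2% on 4B and 32.1% on 7B, close to the 27.6% seen elsewhere. The steps were 0.96 on 4B and 0.95 on 7B on the log2 scale. Only these 3 breaks exceeded 0.9. Of 14 steps between 0.5 and 0.9, 12 were in CK2, whose largest was 0.79, and outside the named chromosomes no RNAi library had a step above 0.50. The steps of CK2 went with a difference between middle and ends that it had over all chromosomes: relative to its mean, CK2 was 0.20 higher in part 5 of the gene order and 0.26 lower in the last, while the other libraries were 0.09 to 0.13 higher and 0.10 to 0.16 lower. CK2 is also part of the CK mean to which the RNAi lines are compared.

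**Figure D4:**
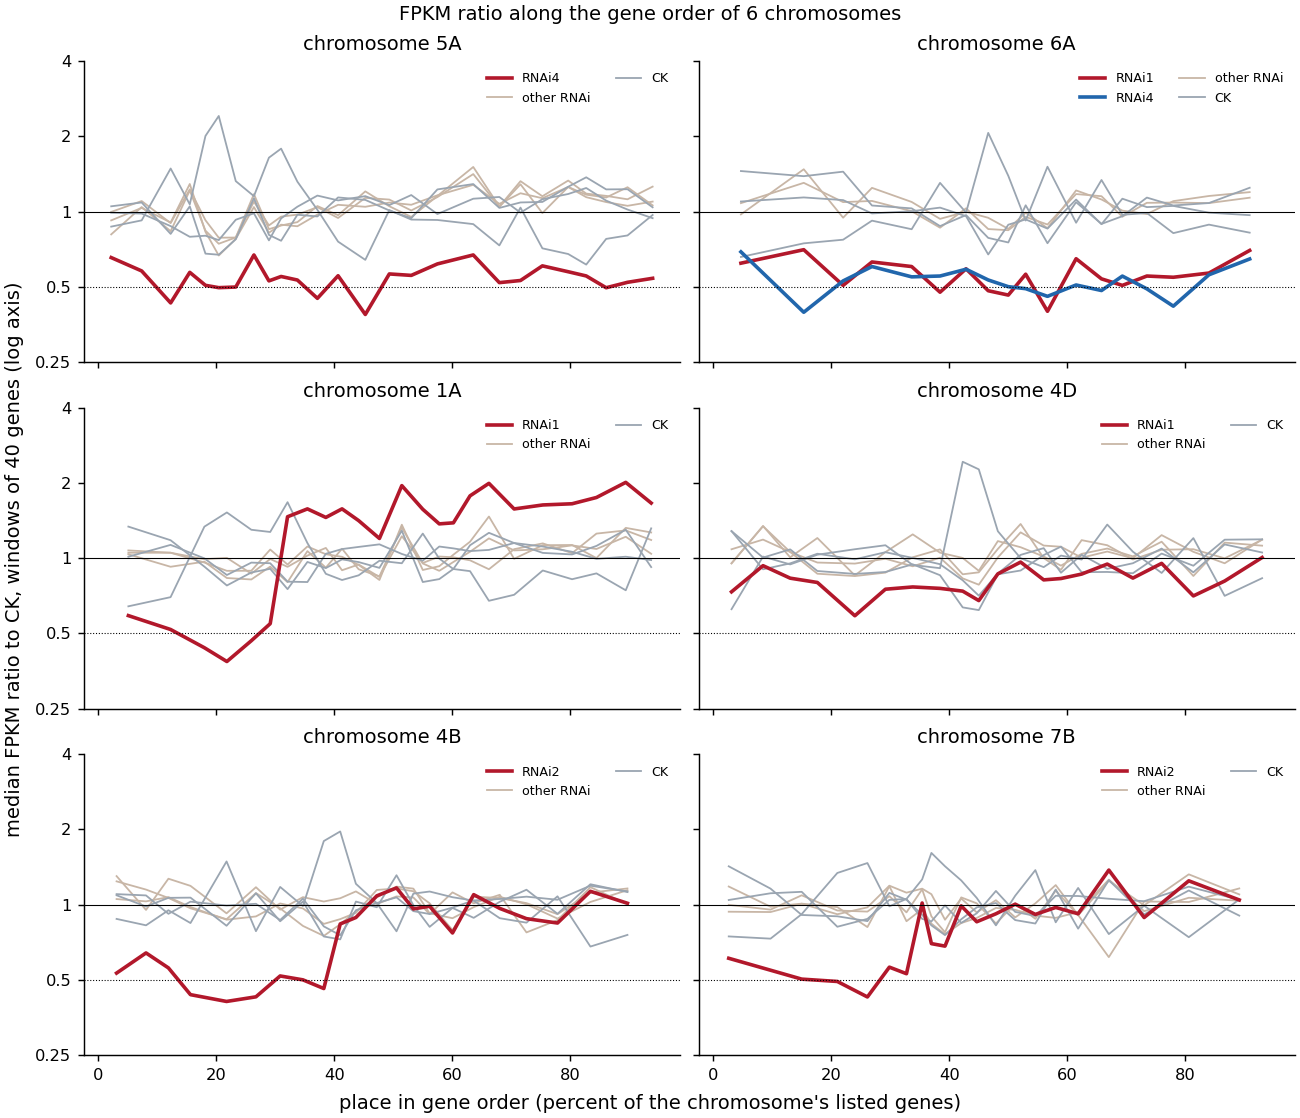
Median FPKM ratio to CK in windows of 40 neighbouring genes with a mean of at least 5 FPKM, against the place in the gene order in percent, for the 6 chromosomes with such stretches, on a log axis with 1 as a solid and 0.5 as a dotted line. The coloured lines of the named RNAi lines run near 0.5 over most of 5A and 6A, and over the first 30.8% of 1A, 40.5% of 4B and 35.1% of 7B. The pale lines of the other RNAi lines and the grey lines of CK stay near 1, apart from peaks of CK2.

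Chromosome 4D in RNAi1 was the weakest of the 7. Its 864 genes had a ratio of 0.833 in RNAi1, against 0.954 to 1.03 in CK and 1.03 to 1.05 in the other RNAi lines, and 41.4% of them were low. Its share of reads was 3.38% in RNAi1, below the 4.02% to 4.20% in CK. The ratio differed with the level of the genes, with 0.721 for genes of 5 to 10 FPKM, 0.876 for genes of 10 to 30 FPKM and 1.17 for genes of at least 30 FPKM. On 6A the same levels had ratios of 0.518, 0.598 and 0.671 in RNAi1 and of 0.520, 0.550 and 0.641 in RNAi4, and on 5A 0.512, 0.580 and 0.689 in RNAi4. A ratio that was higher for genes of higher level was thus found on 5A and 6A too, and also on the second stretch of 4B in RNAi2, which was not low, with 0.873, 1.08 and 1.38. On 4D, genes of at least 30 FPKM were above 1, whereas on 5A and 6A every level was below 1.

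The low ratios were also found for genes that are used outside the spike. Genes with at least 10 reads in both root and embryo of Chinese Spring made up 898 of the 1068 genes of 5A and had a ratio of 0.563 in RNAi4, against 0.444 for the other 170 genes. On 6A the ratios of these 2 classes were 0.571 and 0.495 in RNAi1 and 0.550 and 0.447 in RNAi4. On the first stretch of 1A they were 0.508 and 0.368 in RNAi1, on 4B 0.524 and 0.321 in RNAi2, and on 7B 0.508 and 0.363 in RNAi2. In each of these 6 cases the genes read in root and embryo were low, and the other genes were lower still. A gap of that direction was also found on stretches that were not low, as the ratios of the 2 classes in RNAi2 were 0.992 and 0.435 on the second stretch of 7B and 1.02 and 0.731 on that of 4B. DNA copy number was not measured in these plants, and its part in the stretches was not tested.

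Counts were also taken outside the stretches and without the lines that held them. Outside the stretches, 1715 of 41322 genes were lower (4.15%) and 2301 higher (5.57%). When the median deviation of each library's chromosome or stretch was subtracted from its genes, which by construction brings every chromosome close to the same median, 6A had 82 lower and 87 higher genes (3.89% and 4.13%) and 5A had 116 and 151 (3.97% and 5.16%). Over all genes the counts were then 2332 and 2796, and the share of lower genes ran from 2.79% on 4B to 4.99% on 7A. In the fit of RNAi2 and RNAi3 against CK, without the lines that were low on 6A, 80 genes were lower and 103 higher on 6A (3.79% and 4.88%), and 88 and 179 on 5A (3.01% and 6.12%). Over all genes that fit called 1973 lower (3.55%) and 2956 higher (5.32%). In that fit, the first stretch of 4B had 47 lower and 18 higher of 952 genes (4.94% and 1.89%), and of 7B 39 and 21 of 887 (4.40% and 2.37%). On 1A the first stretch had 34 lower and 14 higher of 629 genes with all lines, whereas the second had 61 lower and 152 higher of 1767. Both alternatives were added after the values by chromosome had been seen.

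A shift shared by all RNAi lines was then tested for each chromosome as the mean log2(FPKM + 1) over its genes minus the mean over all analysed genes. A low chromosome lowers the latter mean, so by construction it raises the shifts of the other chromosomes in the same line. Only 5B passed an unadjusted p under 0.05, with 0.05, -0.0011, -0.0046 and 0.06 in RNAi1 to RNAi4, against -0.07, -0.04 and -0.03 in CK1 to CK3. The groups did not overlap on 5B, the difference of the means was 0.07, and the two-sided exact permutation p was 0.0286, the smallest that 35 splits allow, with an adjusted p of 0.48 over the 21 chromosomes. The highest values on 5B were those of RNAi1 and RNAi4, the lines with a low 6A. On 6A the shift was -0.56, 0.06, 0.04 and -0.52 in RNAi1 to RNAi4, against 0.04, 0.06 and 0.09 in CK1 to CK3, a difference of -0.31 (exact p = 0.2). On 5A it was 0.11, 0.08, 0.08 and -0.53 in RNAi1 to RNAi4, against 0.02, 0.02 and 0.04 in CK1 to CK3, a difference of -0.09 (exact p = 1). Groups did not overlap on 3 of the 21 chromosomes. The SD between libraries was larger in the RNAi lines than in CK on 20 of 21 chromosomes, with a maximum of 0.34 on 6A in RNAi and of 0.03 on 4D in CK.

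How unevenly a library was spread over its chromosomes was summarised from its 21 shifts. From each shift the median shift of the other libraries on that chromosome was subtracted, and the SD over the 21 chromosomes was taken. The measure was added after the values had been seen. It was 0.155, 0.0861, 0.0327 and 0.191 in RNAi1 to RNAi4, against 0.0232, 0.0246 and 0.0271 in CK1 to CK3. All RNAi lines lay above all CK samples, although RNAi3, the line without a stretch, was close to the highest CK sample. The mean was 0.116 ± 0.0707 in RNAi (SD, n = 4) and 0.0249 ± 0.00201 in CK (SD, n = 3), given as a description with no test because the measure was devised once the uneven libraries had been seen.

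The balance of the subgenomes differed most in the lines with low chromosomes. Subgenome A had 909 genes lower and 865 higher of 18518 in the RNAi lines, subgenome B 690 and 963 of 17996, and subgenome D 763 and 1034 of 18472. These are 4.91% and 4.67% for A, 3.83% and 5.35% for B and 4.13% and 5.60% for D, beside 4.31% and 5.23% over all genes. Which direction prevailed was not stable: without CK2 lower genes prevailed in B (957 against 271 higher) and D (1069 against 301), as they did with quantile normalization in B (823 against 736) and D (890 against 781), and with RNAi2 and RNAi3 only, higher genes prevailed in A (989 against 671 lower). The mean of A minus the mean of B and D, in log2(FPKM + 1), was 0.01, 0.06, 0.03 and -0.15 in RNAi1 to RNAi4, against 0.03, 0.04 and 0.04 in CK1 to CK3. RNAi4, the line with both 5A and 6A low, lay farthest from the CK samples. The difference between groups was -0.05 (exact permutation p = 0.6), and it was 0.0055 without RNAi1 and RNAi4. B minus the others was 0.05, -0.09, -0.02 and 0.07 in RNAi1 to RNAi4, against -0.03, -0.02 and -0.02 in CK1 to CK3, with RNAi2, the line with low parts of 4B and 7B, as the lowest. D minus the others was -0.06, 0.03, -0.01 and 0.08 in RNAi1 to RNAi4, against -0.01, -0.02 and -0.02 in CK1 to CK3, with RNAi1, the line with the low 4D, as the lowest. The differences were 0.02 for B (exact permutation p = 0.629) and 0.03 for D (exact permutation p = 0.486), below the spread between the RNAi lines. Because A is among the others here, the low 5A and 6A of RNAi4 raise its B and D values by construction.

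Within homoeologous groups, the group 6 balance, 6A minus the mean of 6B and 6D, was -0.54, 0.05, 0.05 and -0.56 in RNAi1 to RNAi4, against 0.05, 0.07 and 0.09 in CK1 to CK3. For group 5 it was 0.10, 0.06, 0.07 and -0.59 in RNAi1 to RNAi4, against 0.05, 0.06 and 0.07 in CK1 to CK3. For group 1 it was 0.18 in RNAi1 and -0.02 in each of RNAi2, RNAi3 and RNAi4, against -0.0030, 0.01 and -0.04 in CK1 to CK3. In groups 2 and 3, which held no such stretch, the RNAi lines spanned 0.01 to 0.02 and 0.04 to 0.08, against 0.03 to 0.06 and 0.03 to 0.05 in CK. In group 2 the balance was lower in every RNAi line than in every CK sample, with a difference of -0.03, which was not tested. The level of 2A itself overlapped between the groups, with shifts of 0.0097, -0.0035, -0.01 and 0.06 in RNAi1 to RNAi4, against -0.0012, -0.0025 and 0.0051 in CK1 to CK3.

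**Figure D5:**
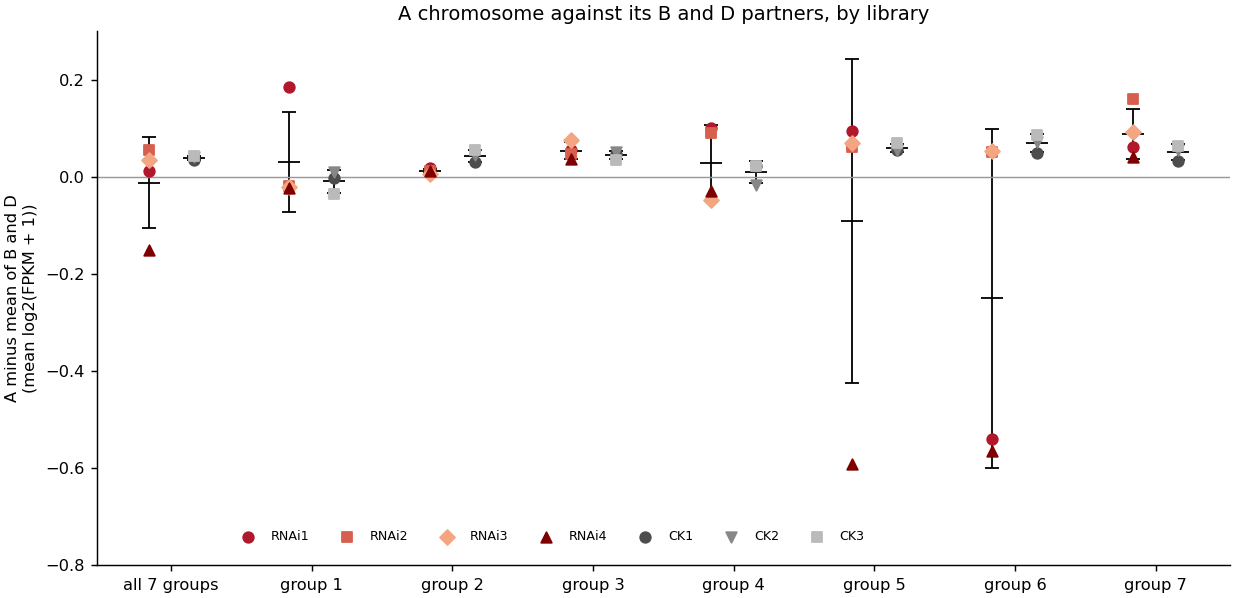
Mean log2(FPKM + 1) of the A chromosome minus that of its B and D partners, by library, for all 7 groups together and for each homoeologous group, RNAi lines on the left and CK on the right, with the mean and SD of each group as bars. RNAi1 and RNAi4 lie at -0.54 and -0.56 in group 6 and RNAi4 at -0.59 in group 5, and all CK samples lie between -0.04 and 0.09.

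In the contrast of chromosome ends with middles, no difference between the RNAi lines and CK was detected. In wheat, genes near the chromosome ends are on average more tissue-specific than those near the centromere. The mean over the 4 outer of these 10 parts of the gene order minus the mean over the 4 middle parts was -0.13, -0.18, -0.13 and -0.14 in RNAi1 to RNAi4, against -0.14, -0.24 and -0.09 in CK1 to CK3. The RNAi values lay inside the CK range, which was set by CK2 and CK3, and the difference was 0.01 (exact permutation p = 0.771). Without CK2 it was -0.03. By part, the share of lower genes was 4.03% in the first part, 3.80% in part 4 and 5.20% in the last, and that of higher genes was 5.16%, 4.45% and 5.64%.

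On a finer scale, a gene was called more often after a gene called in the same direction than over all genes. In 2200 bins of 25 neighbouring genes, limma called 0 lower (0%) and 0 higher (0%) at an adjusted p under 0.05, while 154 (7%) were lower and 180 (8.18%) higher at an unadjusted p under 0.05. Single genes were called in runs. Of the genes that followed a lower gene in the order, 8.22% were lower, compared with 4.30% of all genes that have a preceding one, and 7.97% of those after a higher gene were higher, compared with 5.20%. The correlation of log2 fold changes between genes, which are not independent replicates and share the same 7 libraries, was 0.088 for direct neighbours, 0.036 for the second neighbour and between 0.00895 and 0.0137 at distances of 5 to 50 genes. With the medians of chromosomes and stretches removed, which by construction takes out shifts shared along a chromosome, it was 0.077 for direct neighbours and between -0.0027 and 0.0020 at 5 to 50 genes.

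Runs of at least 3 neighbouring genes called in 1 direction numbered 16 lower runs with 53 genes on 10 chromosomes and 23 higher runs with 73 genes on 15 chromosomes. Chromosomes 5A and 6A had 3 lower runs each and 3B and 5D had 2 each. The longest lower run lay at 94.8% of the order of 5A, with 5 genes from TraesCS5A02G530100, whose median FPKM was 0 in all RNAi lines, against 17.5, 3.45 and 12.3 in CK1 to CK3. Its first gene had 0 reads in every RNAi line and 21, 19 and 51 reads in CK1 to CK3, at 11.4, 4.05 and 9.00 FPKM, and was called at an adjusted limma p of 0.00328. The absence was the same in lines with and without a low 5A, since RNAi1 to RNAi3 had 5A ratios of 1.02 to 1.06. A run of 4 genes from TraesCS3A02G066600 had median FPKM of 0.139, 0, 6.12 and 26.1 in RNAi1 to RNAi4, against 61.5, 28.1 and 31.4 in CK1 to CK3, so that RNAi4 came near the CK range. No function is given here for the genes of these runs, since the identifiers carry no names in the tables used.

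Of the higher runs, 4 had 4 genes each. The run from TraesCS1B02G462200 had median FPKM of 6.88, 5.34, 4.72 and 5.38 in RNAi1 to RNAi4, against 2.21, 0.706 and 2.80 in CK1 to CK3, and the run from TraesCS2A02G014500 had 2.84, 4.17, 9.72 and 9.73, against 1.65, 1.56 and 2.75. The groups did not overlap in either of these runs, and CK2 was the lowest library of both. They did overlap in the run from TraesCS2D02G060800, with 47.8, 62.4, 20.4 and 8.03, against 3.21, 0.940 and 17.2. In the run from TraesCS3D02G184900 they did not, with 7.51, 8.76, 5.97 and 4.39, against 2.57, 0.460 and 3.08. None of the genes in these 4 runs passed the adjusted threshold. Without CK2, 1 higher run and 42 lower runs were found in place of 23 and 16.

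Stretches without any reads were short. Runs of at least 5 neighbouring analysed genes at 0 FPKM numbered 2, 3, 2 and 3 in RNAi1 to RNAi4, against 0, 1 and 0 in CK1 to CK3, and the longest had 7 genes. They were found in CK as well as in the RNAi lines. Genes with no reads in all 4 RNAi lines and at least 3 reads in every CK sample numbered 278 and were found on all 21 chromosomes, with 6 on 4B, 11 on 6A, 17 on 5A and 18 on 7D, against 37 genes in the reverse direction on 16 chromosomes. The 278 are 0.337% of the 82610 genes with reads, and the share was 0.191% on 4B, 0.350% on 6A, 0.396% on 5A and 0.425% on 7D.

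The study lists 318 genes as targets of the RLG_famc7.3 ELEs, a list published with these samples. According to the methods, targets were predicted from distance to an ELE and from correlated transcript-start signals across tissues. The methods name no RNAi or CK library in that prediction. Of the list, 309 genes were analysed, 280 of them on subgenome A (90.6%, against 33.3% of all analysed genes), 21 on B and 8 on D. In the RNAi lines 10 were lower and 17 higher, with 0 lower after Benjamini-Hochberg adjustment in limma, and their median log2 fold change was 0.20, beside 0.17 over all genes. The lower ones were 3.24% of the list, beside 4.31% over all genes. The count of lower ones depended on the tool and on CK2. It was 28 with array weights, where the count over all genes rose as well. It was 33 with edgeR, where 10.8% of all genes were lower, and 41 with DESeq2, where 12.2% were. Without CK2, 17 listed genes were lower (5.50%, beside 5.87% over all genes) and 3 higher, where 1.46% of all genes were higher. Their median was then -0.02, beside 0.03 over all genes. By chromosome, 5A held 37 of the listed genes, with a median of -0.01, beside 0.08 for all 5A genes. Of the 37, 3 were lower (8.11%, beside 5.10% of all 5A genes) and 2 higher, where 2.63% of all 5A genes were higher. Chromosome 6A held 42, with a median of -0.08, beside -0.12 for all 6A genes. Of the 42, 2 were lower (4.76%, beside 8.11% of all 6A genes) and 0 higher, where 0.569% of all 6A genes were higher. The medians of chromosomes and stretches were also removed, which by construction brings 5A and 6A up to the other chromosomes. The 5A targets then had 2 lower (5.41%, beside 3.97% of all 5A genes) and 3 higher, with a median of 0.09. The 6A targets had 1 lower (2.38%, beside 3.89% of all 6A genes) and 3 higher, with a median of 0.22. In all, 127 of the 309 lay on a chromosome with a stretch in at least 1 RNAi line.

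A further table of the study annotates 63 target genes, which overlap that list only in part and were chosen on these samples. Of these, 60 were analysed, and every RNAi line lay below every CK sample for 20, beside 4.72% of all genes, and nothing is read from that count since the list was chosen on these samples. TraesCS5A02G235500, which encodes a protein with a GOLD domain, a fold found in proteins of secretory vesicles, had 0, 0, 0 and 0.286 FPKM in RNAi1 to RNAi4, against 3.98, 1.57 and 1.46 in CK1 to CK3. These values rest on 0, 0, 0 and 2 reads, against 8, 8 and 9, and the log2 fold change was -1.57 ± 0.31 (SE), with an adjusted p of 0.0739 in limma. TraesCS5A02G118800, with CBS and PB1 domains, had 4.52, 4.74, 4.46 and 2.45 FPKM, against 10.7, 15.6 and 5.99, with RNAi4 the lowest. TraesCS5A02G315000, an amino acid or polyamine transporter, had 0, 0, 0.293 and 0 FPKM, against 2.73, 0.580 and 0.960. TraesCS5A02G074000 is similar to GUS enzymes of Arabidopsis, which act on sugars of the cell wall, and had 1.82, 2.25, 2.90 and 4.44 FPKM, against 8.29, 4.54 and 6.55. TraesCS5A02G096800, a syntaxin of membrane fusion, had 1.24, 1.12, 2.53 and 2.49 FPKM, against 2.90, 5.78 and 4.37. TraesCS5A02G208900, an aminopeptidase of the M18 type, had 0.144, 0.618, 0.370 and 0.109 FPKM, against 0.757, 0.821 and 1.67. RNAi4, the line with the low 5A, was the lowest line for 2 of these 6 genes, TraesCS5A02G118800 and TraesCS5A02G208900, and for the other 4 RNAi2, whose 5A was not low, was at or below RNAi4.

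Outside 5A, TraesCS4A02G172300, similar to P-type ATPases that move ions or lipids across membranes, had no reads in any RNAi line, against 3, 20 and 3 reads in CK1 to CK3. TraesCS6A02G161600, a subtilisin-like protease, had 0.231, 0.436, 6.44 and 3.42 FPKM in RNAi1 to RNAi4, against 43.3, 11.0 and 8.83 in CK1 to CK3, and was thus lowest in RNAi1 and RNAi2, of which only RNAi1 had a low 6A. TraesCS6A02G125400, similar to leucine-rich repeat receptors, had 0.523, 0.897, 0.793 and 0.895 FPKM, against 1.74, 2.57 and 1.44. TraesCS3A02G238200, an arabinogalactan protein of the cell surface, had 1.21, 0.780, 0.111 and 0 FPKM, against 3.98, 1.41 and 1.69. TraesCS7A02G221500, a short-chain dehydrogenase, had 0.543, 0.544, 0.531 and 0.205 FPKM, against 1.90, 0.751 and 2.18. TraesCS2A02G285300, an ACT domain protein that is similar to amino acid sensors, had 0.803, 1.84, 2.70 and 2.17 FPKM, against 5.10, 3.81 and 3.04, and TraesCS2A02G171700, similar to the peroxisome assembly factor PEX10, had 2.18, 2.15, 1.84 and 2.35 FPKM, against 4.17, 5.48 and 2.55. For all of these 13 genes the adjusted p in limma was above 0.05, between 0.0739 and 0.33, and they had been chosen because the groups do not overlap.

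The internal control of the study, TaActin (TraesCS1A02G274400), which encodes a cytoskeletal protein, lies on the second stretch of 1A. It had 14.0, 7.32, 8.76 and 25.1 FPKM in RNAi1 to RNAi4, against 19.0, 6.82 and 17.1 FPKM in CK1 to CK3. The groups overlapped, with RNAi4 the highest and CK2 the lowest library. The log2 fold change was -0.08 ± 0.50 (SE), with an adjusted p of 0.941 in limma.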

How the data were processed

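RNA-seq libraries of 4 RNAi lines and 3 CK samples were used. The authors trimmed reads with Trim Galore 0.6.4 and cutadapt, aligned them with HISAT2 2.1.0, counted them per gene with featureCounts, and deposited FPKM values per gene. The deposited read counts of Chinese Spring root and embryo were used only to mark genes with at least 10 reads in both. Position was read from the gene identifier. Whole reads were recovered from FPKM (99.9987% of 473598 values above 0, within 0.003 reads or a relative 6e-06), giving a median of 47 to 62 reads per analysed gene in the RNAi lines and 19 to 55 in CK.

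Genes with a mean of at least 0.5 FPKM were tested with limma 3.58.1 (R 4.3.3, trend) on log2(FPKM + 1), without a block, with Benjamini-Hochberg adjustment over all of them. Fold changes are on the log2(FPKM + 1) scale, which understates changes of low genes. A gene was called beyond a log2 fold change of 1 at p under 0.05. These thresholds are those of the study's methods, but the study applied them with DESeq2 and not with limma. Single values were compared with exact two-sided permutation tests over the 35 splits. For the ratios, 0.1 was added to genes of at least 5 FPKM, and 1 break per chromosome and library was sought with at least 50 genes on each side and a step above 0.9 (log2). This search, the removal of stretch medians, the unevenness measure and the comparison of RNAi2 and RNAi3 with CK were added after values had been seen. The members and lists were chosen with earlier results of these data known. Named genes were the annotated targets with every RNAi line below every CK sample, up to 2 a chromosome and 6 on 5A by p, the first genes of the longest runs, and TaActin. Alternatives were other pseudocounts, minimums, bin and run sizes, scalings, array weights, a replicate block, left-out libraries, and edgeR 4.0.16 and DESeq2 1.42.0 on the recovered reads. The fits were tested on simulated data. Python 3.11.15 with numpy 2.4.6, pandas 2.3.3 and matplotlib 3.10.9 was used.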

Additional observations from a re-analysis of the deposited data

Results flagged for a closer look

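Of 42 sets of 4 RNAi values that were checked, 6 had a line far from the other 3. The usual rate of about 1 in 20 by chance holds for values without ties and for sets not chosen on these samples. It therefore does not apply to this count. The mean shift of 4D was -0.12 in RNAi1, against 0.11 to 0.14 in the other lines. The mean shift of 5A was -0.53 in RNAi4, against 0.08 to 0.11 in the other lines. For 4 named genes the distant value was in log2(FPKM + 1). TraesCS5A02G235500 had 0.36 in RNAi4 and 0 in the other lines, and TraesCS5A02G315000 had 0.37 in RNAi3 and 0 in the other lines. With the other lines at 0, any value above 0 is flagged, and these rest on 2 and 5 reads. TraesCS5A02G118800 had 1.78 in RNAi4, against 2.45 to 2.52 in the other lines, and TraesCS7A02G221500 had 0.27 in RNAi4, against 0.61 to 0.63 in the other lines.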

How the results depend on the processing

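Counts of called genes moved with the scaling, with CK2 and with single lines. Genes lower in RNAi numbered 5377 with array weights, 5518 with edgeR and 6767 with DESeq2, and 1673 to 3260 with 1 library left out. Genes higher in RNAi numbered 4433 with a pseudocount of 0.1, and 810 (without CK2) to 5925 (without CK3) with 1 library left out, with 4551 without RNAi4, 1725 without RNAi1 and 1883 without RNAi2. After adjustment, 501 genes were lower with quantile normalization, 552 with edgeR, 2251 with DESeq2, 4963 with array weights, 0 in the comparison of RNAi2 and RNAi3 with CK, and 168 (without RNAi1) to 781 (without CK2) with 1 library left out. After adjustment, 37 genes were higher with quantile normalization, 6 with edgeR, 498 with DESeq2, 3237 with array weights, 0 for RNAi2 and RNAi3, and 1 to 60 with 1 library left out. Array weights gave CK1 a weight of 4.58 and CK2 one of 0.141.

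Same-numbered RNAi and CK libraries did not deviate together (correlations of -0.0835, -0.0477 and 0.0894), so they share only a number. With the replicate block, 3161 genes were lower and 4748 higher, 451 and 134 after adjustment, with 40 lower and 81 higher runs and 0 bins.

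Lower runs numbered 28 with quantile normalization, 90 with edgeR, 127 with array weights and 139 with DESeq2, 173 at a minimum of 2 genes, 4 at a minimum of 4 genes, and 10 (without CK1) to 42 (without CK2) with 1 library left out. Higher runs numbered 7 with edgeR, 46 with array weights, 52 with a pseudocount of 0.1, 201 at a minimum of 2 genes, 4 at a minimum of 4 genes, and 1 (without CK2) to 101 (without CK3) with 1 library left out. Adjusted lower bins numbered 28 in bins of 10 genes, 3 with a minimum of 0.1 FPKM, 3 with a pseudocount of 0.1 and 73 with array weights, with 65 higher bins in the last. Listed targets that were lower numbered 19 with a pseudocount of 0.1, 28 with array weights, 33 with edgeR and 41 with DESeq2, and 6 to 17 with 1 library left out. With array weights, edgeR and DESeq2 the count over all genes rose as well.

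Chromosomes with a permutation p under 0.05 numbered 0 with a pseudocount of 0.1, a minimum of 0.1 FPKM or medians over genes, 2 with shares of summed FPKM, 3 with stretch medians removed, and 0 with any 1 library left out or with RNAi2 and RNAi3 only, where the few splits cannot reach that threshold. The difference in unevenness was -0.0034 with stretch medians removed, which centres the chromosomes by construction and so bears on nothing. A minus B and D was 0.0055 for RNAi2 and RNAi3. Ends minus middle was -0.0086 with a minimum of 0.1 FPKM, and -0.0299 (without CK2) to 0.0470 (without CK3) with 1 library left out. TaActin ran from -0.51 without CK2 to 0.17 without CK1, with 0.09 without CK3, 0.14 without RNAi2 and 0.07 without RNAi3. The cause of these changes was not tested. With 19 to 55 reads per gene in CK, values of low genes rest on few reads.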
